A study of Caenorhabditis elegans with 2 samples.

Results

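The regions described here lay at genes for small nuclear RNAs (snRNAs), spliced leader RNAs and small nucleolar RNAs (snoRNAs) in a ChIP-seq experiment on NHR-237, a nuclear hormone receptor of Caenorhabditis elegans. A region was a member when its summit, the authors' position of highest signal, fell inside or within 500 bp of a gene that the Ensembl annotation of WBcel235 (ce11) types as snRNA or snoRNA. The rule used position alone and no measured level. It took 252 of the 26760 nuclear regions of the authors' pooled list, 14 at spliced leader genes (named sls- and typed as snRNA), 35 at other snRNA genes and 203 at snoRNA genes. These genes numbered 30, 99 and 346. The stretches within 500 bp of them made up 0.509% of the nuclear genome, and the members were 0.942% of the regions.

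There was 1 group of 2 biological replicates, both whole L4 larvae with males and females pooled, of strain OP228. This strain carries unc-119(ed3) on chromosome III and the insertion wgIs228, a transgene for NHR-237 fused at its C terminus to GFP and FLAG. The tagged protein came from this 1 line, whole larvae give no cell type, and the labels name neither the promoter of the transgene nor an untagged comparison, so nothing could be tested between conditions. Deposited were lists of regions, background included, per replicate and for the replicates combined (the pooled list), and the subset that passed the irreproducible discovery rate (IDR) procedure between replicates (the IDR peaks), all without read counts, so that sequencing depth is unknown.

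Spliceosomal snRNAs form, with their proteins, the machine that removes introns. In nematodes, spliced leader RNAs donate a short exon to the 5′ end of many messenger RNAs by trans-splicing, and the SL2 leaders, encoded by the sls-2 genes, go mainly to downstream genes of operons. snoRNAs guide chemical modification of ribosomal RNA and snRNA, and many of them are cut out of introns of host genes, often genes for ribosomal proteins. snRNA genes of animals are known for a proximal sequence element shortly upstream of the transcribed part, where the snRNA-activating complex binds.

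The sequences of the sls-2 genes come first because 4 of them, sls-2.1 to sls-2.4, lay within 500 bp of the 3 strongest summits of the 49 at snRNA genes, the spliced leader genes included. For sls-2.3 that summit was 479 bp away, inside sls-2.2. These 4 genes shared their first 51 bases, and no other sls-2 gene had the same first 22 bases, the length of the leader. The gene sls-2.1 is given as the example on the WBcel235 genome sequence of RefSeq (chrII:5844865-5844974, plus strand), with the 22 leader bases in capitals. The 100 bases upstream of sls-2.1 (chrII:5844765-5844864, plus strand), sls-2.2 (chrII:5543498-5543597, plus strand) and sls-2.3 (chrII:5544274-5544373, minus strand) follow on the strand of the gene. Capitals in these mark the run of 8 or more bases that all 4 genes had at the same place.
sls-2.1 gene: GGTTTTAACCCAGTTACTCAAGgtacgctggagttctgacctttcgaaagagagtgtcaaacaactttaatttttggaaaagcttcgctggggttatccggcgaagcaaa
sls-2.1 upstream: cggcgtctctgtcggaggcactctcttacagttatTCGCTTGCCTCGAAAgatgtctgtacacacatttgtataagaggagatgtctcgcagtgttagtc
sls-2.2 upstream: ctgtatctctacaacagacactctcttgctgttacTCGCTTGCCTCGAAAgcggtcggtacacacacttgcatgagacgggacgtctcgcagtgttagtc
sls-2.3 upstream: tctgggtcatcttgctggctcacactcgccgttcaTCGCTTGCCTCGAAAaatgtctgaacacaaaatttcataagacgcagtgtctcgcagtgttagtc

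The shared run, TCGCTTGCCTCGAAA, was 15 bases long and reached from 65 to 51 bases upstream of the gene. It was the 1 run of that kind, and 47 of the 100 positions were identical in all 4 windows. The windows shown also had gtctcgcagtgttagtc directly before the gene. The window of sls-2.4, which is not shown, did not have that whole stretch. The 15-base run was looked for after the windows had been seen, as what these 4 similar genes share. Its absence elsewhere is thus a description and no test of specificity. On the gene's strand the run occurred in none of the same windows of the other 14 sls-2 genes and of the 99 other snRNA genes. The same held for the 346 snoRNA genes and the 19973 protein-coding genes.

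A second set of windows shows the word that the upstream stretches of snRNA genes shared most. CGGAACCC was the 8-base word present in the 100 bases before the most snRNA genes, on the gene's strand. It was chosen for that, so its count there is a description. It stood before 31 of the 129 snRNA genes including spliced leader genes (24.0%), 56 to 74 bases upstream with a median of 61. TGTCGG, a shorter word chosen after the windows were seen, stood before 42 (32.6%), at a median of 47 bases. For snoRNA genes the shares were 5.78% and 9.25%, and for protein-coding genes 0.025% and 0.781%. The windows shown are those of sup-6 (chrII:12944968-12945067, minus strand), R07E5.16 (chrIII:10989579-10989678, plus strand) and the snoRNA gene Y53F4B.47 (chrII:15025894-15025993, minus strand). These 3 genes had both the word and an IDR peak. The window of sls-2.8 (chrIII:12250365-12250464, plus strand) held the word without an IDR peak. F38E11.11 (chrIV:9444542-9444641, plus strand) and the snoRNA gene T06D8.11 (chrII:11224082-11224181, plus strand) had an IDR peak nearby and windows with no exact copy of either word. Their windows held cgaaaccc and cgaaactc, which match CGGAACCC in part. Only exact copies were counted, so genes with such near copies count as without the word. Capitals mark the words.
sup-6: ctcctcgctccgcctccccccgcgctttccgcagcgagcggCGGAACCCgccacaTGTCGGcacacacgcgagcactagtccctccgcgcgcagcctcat
R07E5.16: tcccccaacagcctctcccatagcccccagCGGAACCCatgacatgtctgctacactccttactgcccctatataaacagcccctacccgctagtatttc
Y53F4B.47: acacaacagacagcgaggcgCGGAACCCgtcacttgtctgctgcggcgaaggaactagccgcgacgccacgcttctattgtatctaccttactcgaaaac
sls-2.8: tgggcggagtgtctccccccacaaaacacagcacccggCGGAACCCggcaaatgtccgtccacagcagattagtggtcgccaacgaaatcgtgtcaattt
F38E11.11: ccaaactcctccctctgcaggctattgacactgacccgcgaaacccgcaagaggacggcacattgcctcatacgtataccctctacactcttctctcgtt
T06D8.11: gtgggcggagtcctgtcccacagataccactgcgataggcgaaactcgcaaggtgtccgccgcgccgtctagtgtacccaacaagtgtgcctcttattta

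Genes with and without an exact copy of the word had regions in shares of the same order. Of the 31 snRNA genes with CGGAACCC upstream, spliced leader genes included, 11 had a region and 2 an IDR peak, against 26 and 5 of the 98 without it. The word was also looked for on either strand within 100 bp of the summit of all pooled regions. It was in 11 members, 9 at snoRNA genes and 2 at other snRNA genes, with a median rank percentile of 83.0. The 241 members without it had 72.7, and the 85 regions with it elsewhere had 39.2. Of the 11, 1 was an IDR peak (9.09%), and of the 241, 12 were (4.98%). The rank percentile gives the place of a region in the pooled list by signal, 100 being the strongest and 50 the middle of the list. Of those 85 regions 2 were IDR peaks, nearest to the 5′ ends of ints-8, which encodes a subunit of the Integrator complex that processes snRNA ends, and of ogt-1, which encodes O-GlcNAc transferase. Their summits lay 915 bp and 2134 bp from those ends.

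Regions at all 3 classes of RNA gene ranked above the middle of the list, and the median was highest at spliced leader genes. The median percentile was 94.1 for the 14 regions at spliced leader genes (quartiles 57.4 and 98.8). It was 76.9 for the 35 at other snRNA genes (43.4 and 94.4) and 71.9 for the 203 at snoRNA genes (45.3 and 91.6). Without replicate 1, the order of snRNA genes (spliced leaders included) and snoRNA genes turned round, from medians of 84.6 and 71.9 to 65.1 and 67.4, and without summits in protein-coding promoters to 66.3 and 69.5. The quartile ranges of the classes overlapped, and each class reached far down the list, with worst ranks of 19944, 26718 and 26512. Over all members the median was 73.2, and 181 of 252 lay in the stronger part of the list, above percentile 50. The 293 regions at tRNA genes, chosen by the same distance, had a median of 70.7 and the 82 at miRNA genes 65.8, so a rank above the middle was shared with other short RNA genes.

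**Figure D1:**
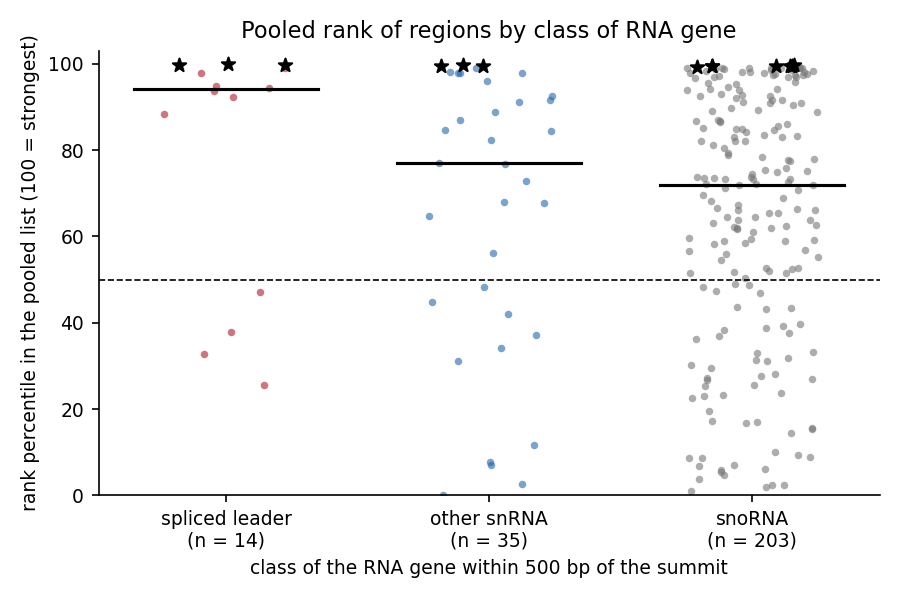
Rank percentile in the pooled list (100 is the strongest) of each of the 252 regions, by class of RNA gene; each point is 1 region, stars are IDR peaks, solid bars are medians (94.1, 76.9 and 71.9) and the dashed line is the middle of the list at 50. All 3 medians lie above the dashed line, and every class also has regions below it.

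The IDR peaks on nuclear chromosomes were the regions ranked 1 to 213 of the pooled list, so that IDR membership and rank are not separate measures. Of the members 13 were IDR peaks (5.16%, exact Clopper-Pearson 95% interval 2.78 to 8.66%, which covers counting error only), beside 0.796% of all nuclear regions. They were 6.10% of the 213 IDR peaks. By class the share was 3 of 14 at spliced leader genes (21.4%, 4.66 to 50.8%), 3 of 35 at other snRNA genes (8.57%, 1.80 to 23.1%) and 7 of 203 at snoRNA genes (3.45%, 1.40 to 6.98%). The intervals of the classes overlapped. At tRNA genes it was 6 of 293 (2.05%), and at miRNA genes 4 of 82 (4.88%), close to the snoRNA share.

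At a wider cut the order of the classes was the same, but this cut includes the IDR peaks and is no separate count. Of the spliced leader regions 5 (35.7%) ranked 1 to 1000, of other snRNA regions 8 (22.9%) and of snoRNA regions 37 (18.2%), 50 members in all (19.8%). Of all regions 3.74% have such a rank. At tRNA genes 27 regions (9.22%) and at miRNA genes 8 (9.76%) did. Leaving the IDR peaks out, 37 of 239 members (15.5%) had such a rank, beside 2.96% of all regions that are not IDR peaks. The order of the classes was not computed without the IDR peaks.

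The strongest member was at sls-2.4 (chromosome I, summit 4172310), with a pooled signal of 63.0 and rank 40. Signal is the authors' value per region, on a scale that the sources used here do not give. In replicate 1 the strongest overlapping region had a signal of 48.1 (rank 31 of 29973 nuclear regions) and in replicate 2 of 20.6 (rank 65 of 29975). The summit lay inside the gene, 104 bp downstream of its 5′ end, and 721 bp upstream of the nearest protein-coding 5′ end, that of egg-5, a gene of the egg-to-embryo transition. Both replicates placed it among their 100 strongest regions.

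At sls-2.1 (II, summit 5844843) the pooled signal was 60.2 (rank 43), with 30.8 in replicate 1 (rank 91) and 34.9 in replicate 2 (rank 25). The summit lay 22 bp upstream of the gene. The convergent pair sls-2.2 and sls-2.3 shared a summit inside sls-2.2 (II, 5543685), with a pooled signal of 55.6 (rank 52), 19.7 in replicate 1 (rank 321) and 36.8 in replicate 2 (rank 24). These 3 regions thus ranked high in both lists, but sls-2.4 ranked higher in replicate 1 and both others in replicate 2. None of the 4 genes lay inside a protein-coding gene. The genes sls-2.2 to sls-2.4 were 90.9 to 92.7% identical to sls-2.1 over their length, and their upstream windows 70.2 to 79.0% identical to that of sls-2.1.

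The other sls-2 genes differed in leader sequence, and they had best regions of lower rank or no region. Each of the 4 genes with the leader shown had an IDR peak within 500 bp, but for sls-2.3 it was the summit inside sls-2.2, 479 bp away. The region nearest to sls-2.3, 134 bp upstream, ranked 17999 and was found in neither replicate. Of the other 14 genes, 6 had a pooled region and 0 an IDR peak. The 4 genes were picked for lying near IDR peaks, so this 0 follows from the choice and is no test of the leader sequence. Their best ranks were 251 at sls-2.8, 585 at sls-2.6, 1393 at sls-2.5, 1691 at sls-2.18, 2081 at sls-2.9 and 16640 at sls-2.14. The region at sls-2.8 had signals of 28.9 in the pooled list, 23.4 in replicate 1 (rank 192) and 12.7 in replicate 2 (rank 294), and its summit lay 78 bp into the gene. Of the 6 spliced leader regions in the top 1000 of both replicates it was the 1 that neither was an IDR peak nor shared its replicate regions with one. The region at sls-2.6 ranked 557 and 2870, and its summit lay 105 bp upstream of the host gene hgo-1, for homogentisate oxidase. The region at sls-2.5, in an intron of the glutamate receptor gene glr-2, ranked 28854 and 4927, far lower in the replicates than in the pooled list.

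None of the 12 sls-1 genes, which encode the leader SL1, had a region within 500 bp. Of these genes 10 had 1 sequence in common and the other 2 another. The sources used here do not give whether reads from repeated sequences entered the deposited lists. In all 10 of 30 spliced leader genes had a region (33.3%) and 27 of 99 other snRNA genes (27.3%). For snoRNA genes it was 171 of 346 (49.4%), for tRNA genes 307 of 612 (50.2%) and for miRNA genes 76 of 261 (29.1%). The spliced leader share joined 0 of 12 sls-1 genes with 10 of 18 sls-2 genes (55.6%).

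Among the other snRNA genes, F38E11.11 had the strongest region (IV, summit 9444573), with a pooled signal of 42.3 (rank 89), 25.7 in replicate 1 (rank 151) and 21.2 in replicate 2 (rank 62). The summit lay 69 bp upstream of the copy WBGene00014366. R07E5.16 (III, summit 10989772) had signals of 37.0 (rank 128), 25.8 (rank 148) and 18.4 (rank 82). Its summit lay 93 bp into the gene, which sits in an intron of dhc-4, for a dynein heavy chain. At sup-6 (II, summit 12944810), 1 of 2 genes among the members known from suppressor mutations in U1 snRNA genes, the signals were 36.8 (rank 137), 27.6 (rank 124) and 11.1 (rank 522). The summit was 157 bp from the 5′ end and inside the gene. All 3 ranked in the top 1000 of both replicates.

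The second suppressor gene, sup-39, had regions on both sides of its 5′ end, 217 bp apart, with ranks of 580 and 595 and pooled signals of 22.2 and 22. Both overlapped the same replicate regions, which ranked 694 and 100. Around F54D8.7 on chromosome III, 2 summits 200 bp apart ranked 288 and 571 (signals of 27.4 and 22.3), again with shared replicate regions of rank 440 and 64. F32B5.9, at rank 513 with a signal of 23.1, overlapped a region of replicate 1 (rank 216) and none of replicate 2. Neighbouring summits at 1 gene are thus not separate observations: of the 53 distinct pairs of neighbouring summits at 1 gene 31 were at most 250 bp apart, and the closest were 199 bp apart.

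Copies of 1 snRNA sequence differed widely in rank. A set of 44 genes fell into 9 families of identical sequence, and 4 families had any region. R07E5.16 is the name of 14 genes of identical sequence, of which 4 had a region. One of these, WBGene00014543, had the IDR peak, and the other copies' regions ranked from 8555 to 26718. F38E11.11 had 2 copies, with best ranks of 89 and 14777, and F54D8.7 had 3, with best ranks from 288 to 24865 in the 2 that had a region. Reads that fit several copies cannot be placed from the copy itself, and the sources used here do not give how the authors treated them. No snoRNA gene had an identical copy.

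At snoRNA genes the strongest region was near F54E7.10 (III, summit 5679143), with a pooled signal of 57.4 (rank 49), 33.9 in replicate 1 (rank 71) and 22.1 in replicate 2 (rank 57). The gene lies in an intron of rps-12, for a ribosomal protein of the small subunit. The summit lay 235 bp upstream of the snoRNA and 138 bp upstream of ska-3, for a kinetochore protein, so that 3 genes lay close by. Near Y24D9A.9 (IV, summit 4390682) the signals were 35.4 (rank 155), 19.6 (rank 332) and 12.0 (rank 377). That summit lay 374 bp upstream of the snoRNA but 92 bp upstream of its host gene rpl-7A, for a ribosomal protein of the large subunit. In both cases the summit was nearer to a protein-coding 5′ end than to the snoRNA.

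At 3 further snoRNA genes the summit was nearer to the RNA gene. At T06D8.11 (II, 11224191) it lay 9 bp into the gene, in an intron of plpr-1, with signals of 37.0 pooled (rank 129), 26.2 in replicate 1 (rank 139) and 15.7 in replicate 2 (rank 143). At Y53F4B.47 (II, 15025898) it lay 5 bp upstream of the gene and 216 bp upstream of cmtr-1, for a cap methyltransferase. Its signals were 36.8 (rank 133), 24.3 (rank 178) and 16.2 (rank 126). At F11A10.9 (IV, 12086667), in an intron of rbm-34, for an RNA-binding protein, the summit lay 42 bp upstream. Its signals were 33.8 (rank 172), 27.3 (rank 127) and 6.91 (rank 4052). F11A10.9 was the 1 of the 13 IDR peaks outside the top 1000 of a replicate.

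The other 2 IDR peaks lay upstream of snoRNA genes that are in no protein-coding gene. At M7.15 (IV, 11083004) the summit was 143 bp upstream, and the nearest protein-coding 5′ end, that of klc-1 for kinesin light chain, was 731 bp away. The signals were 37.9 (rank 122), 29.7 (rank 98) and 12.2 (rank 346). At W06H8.17 (V, 6227869) it was 319 bp upstream, with signals of 31.8 (rank 200), 18.9 (rank 387) and 14.4 (rank 193). Both were thus in the top 1000 of both replicates with replicate ranks that differed by up to several fold.

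Just outside the IDR set, Y43B11AR.7 in an intron of rps-4 ranked 221 (30.6 pooled) and F07A11.15 ranked 238 (29.5). Both were in the top 1000 of both replicates, with ranks of 320 and 206, and of 223 and 112. The first summit lay 214 bp from the snoRNA but 58 bp from a 5′ end of the protein-coding gene Y43B11AR.3. The second lay inside F07A11.15 and 69 bp upstream of a 5′ end of din-1. C34E11.20 on X ranked 249, but its replicate ranks were 208 and 16032. Of the remaining snoRNA regions in the top 1000 of the pooled list, several lay near ribosomal protein genes. They were at D1007.20 in rpl-24.1 (rank 300), R151.11 in rpl-6 (568) and B0041.9 in rpl-4 (798). Their summits were nearer to the host 5′ end (286, 300 and 215 bp) than to the snoRNA (420, 466 and 399 bp). D1007.20 and B0041.9 overlapped a region of replicate 1 (ranks 348 and 214) and none of replicate 2. Of the 19 snoRNA and snRNA genes inside a ribosomal protein gene on the same strand, 11 had a region and 2 an IDR peak, where of all 475 genes 208 had a region and 14 an IDR peak.

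The rest of the 37 snoRNA regions in the top 1000 were at genes of which most lie in no protein-coding gene. In the top 1000 of both replicates were T19B4.8 (pooled rank 246, replicate ranks 739 and 147), T26A8.6 (254, then 452 and 736), F17C11.24 (278, then 558 and 204), F59C6.15 (311, then 665 and 236) and B0334.12 (578, then 528 and 531). K07C10.2 (293), ZK20.9 (301), C18A3.12 (310), ZK265.10 (374), C17H12.36 (489), Y38F2AR.14 (629), T08B2.13 (658) and D2023.18 (717) ranked in the top 1000 of replicate 2 alone, as did R151.11. F39B2.14 (385), T03F7.8 (424) and C53B7.8 (505) did so in replicate 1 alone, and C27H6.5 (519) was found in replicate 1 and in no region of replicate 2. Y53F4B.48 (534), Y43F8C.22 (683), Y46E12BL.11 (697), T08B6.64 (764), a second summit at D2023.18 (824), F37F2.4 (838) and F25H2.15 (881) were in the top 1000 of neither.

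Summits of the strong members lay mostly upstream of the RNA gene or inside it. Of the 13 IDR members 8 had the summit upstream of the nearest RNA gene, 5 inside it and 0 downstream. Among the 50 members of rank 1 to 1000 it was 32, 13 and 5, and among all 252 it was 125, 46 and 81. At snRNA genes, spliced leaders included, 4 of 6 IDR summits lay inside the gene and 2 upstream. At snoRNA genes 6 of 7 lay upstream and 1 inside. Of the 37 snoRNA regions in the top 1000, 27 lay upstream.

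**Figure D2:**
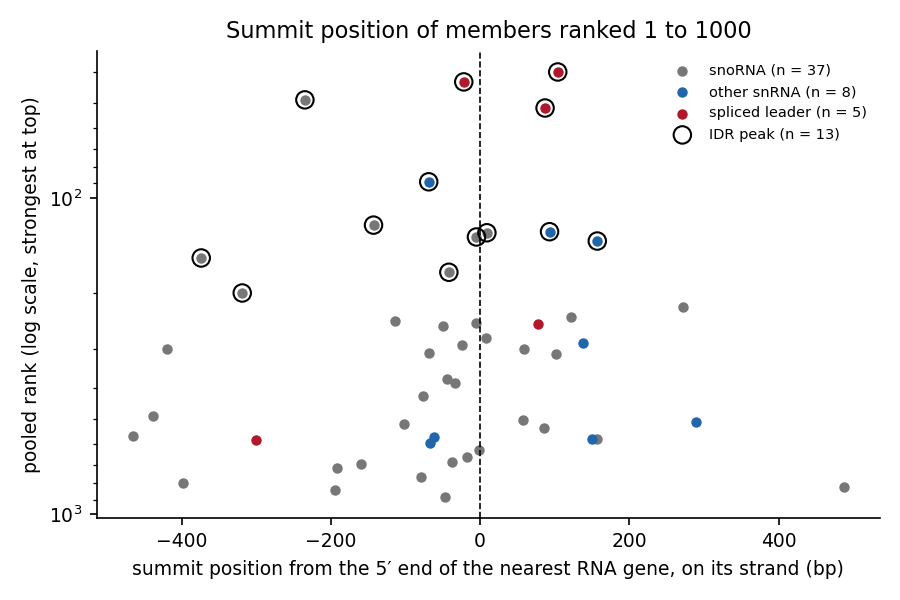
Summit position relative to the 5′ end of the nearest RNA gene, in bp on its strand (negative is upstream), against pooled rank on a log scale with the strongest at the top, for the 50 members of rank 1 to 1000; circles mark the 13 IDR peaks and colours the class. Of the 50 summits 26 lie within 100 bp of the 5′ end, and those far upstream are mostly at snoRNA genes.

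The rank fell with distance from the gene at snRNA genes and less so at snoRNA genes. For snRNA genes with the spliced leaders, the median percentile was 99.1 for the 9 regions with the summit inside the gene, 92.6 for the 19 at 1 to 100 bp, 55.0 for the 12 at 101 to 250 bp and 47.0 for the 9 at 251 to 500 bp. All 6 IDR peaks lay inside or within 100 bp, and none of the 24 regions at 501 to 1000 bp or the 49 at 1001 to 2000 bp was one. For snoRNA genes the medians in the same order were 73.5, 84.7, 64.2 and 52.7, over 37, 59, 52 and 55 regions.

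The IDR share at snoRNA genes did not fall in the same way. It was 2.70%, 3.39%, 3.85% and 3.64% in those distances and 5.38% (7 of 130) from 501 to 1000 bp, before 1.88% (4 of 213) from 1001 to 2000 bp. The stretch just beyond the limit of 500 bp held as many IDR peaks at snoRNA genes as the stretch within it, 7 in each. At snRNA genes it held none among 24 regions, which is near the share over all regions. Just inside the limit were T11F9.15 at 494 bp (rank 8638) and K10D3.10 at 498 bp (rank 15229), and just outside were a second summit at sls-2.6 at 501 bp (rank 3129) and K09H9.11 at 503 bp (rank 3856).

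**Figure D3:**
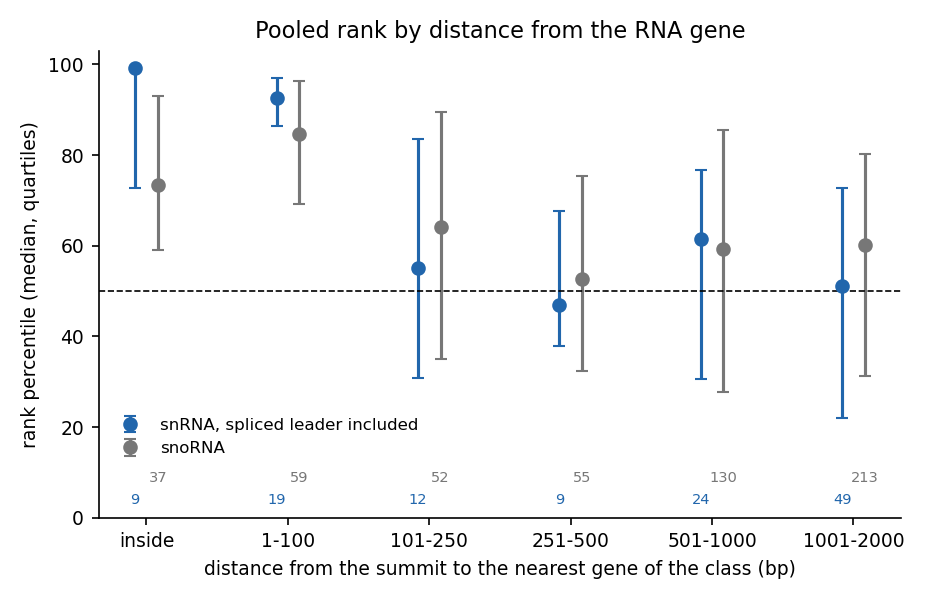
Median rank percentile (points) with quartiles (bars) of pooled regions by distance in bp from the summit to the nearest gene of the class, for snRNA genes with the spliced leaders and for snoRNA genes; the numbers under the points count regions and the dashed line is the middle of the list at 50. The snRNA medians are 99.1 and 92.6 within 100 bp and between 47.0 and 61.4 farther away, and the snoRNA medians lie between 52.7 and 84.7.

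Promoters of protein-coding genes, counted from 1000 bp before to 200 bp past a transcript's 5′ end, held 87 of the member summits, and these were IDR peaks more often. There were 8 IDR peaks among the 87 (9.20%), beside 1.49% of all regions in promoters. Outside promoters there were 5 among 165 (3.03%), beside 0.497% of all such regions. The median percentiles were 82.0 and 68.8. By class, 5 of the 7 snoRNA peaks lay in promoters (of 68 regions, 7.35%) and 2 outside (of 135, 1.48%). For spliced leader genes it was 2 of 5 and 1 of 9, and for other snRNA genes 1 of 14 and 2 of 21. A summit in such a promoter cannot be assigned to the RNA gene or to the protein-coding gene from its position.

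Regions at snoRNA genes ranked above the middle of the list both inside and outside host genes. The 94 regions at snoRNA genes inside a protein-coding gene on the same strand had a median of 66.5 with 4 IDR peaks, and the 87 at snoRNA genes in no such gene had 73.2 with 3. The 22 at genes inside one on the other strand had 76.3 with 0. Of the 183 host-gene snoRNAs on the same strand, 142 were in introns and 41 overlapped an exon of the annotation. All 4 peaks were at intronic ones, which were most of these genes, so no difference can be read from this.

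Members were found in both replicates more often than the regions of the whole list, and their replicate signals varied together more closely. Of the 252, 132 (52.4%) overlapped a region of both replicate lists by at least 1 bp, beside 29.6% of all nuclear regions. A further 72 were found in replicate 1 only, 32 in replicate 2 only and 16 in neither. The shares found in both were 78.6% at spliced leader genes, 54.3% at other snRNA genes and 50.2% at snoRNA genes, with 45.1% at tRNA and 43.9% at miRNA genes. The pooled list comes from the same 2 libraries, so these shares are no independent check of it. Members also ranked higher (median percentile 73.2, beside 50 for the whole list), and agreement was not compared at like ranks.

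In the top 1000 of both replicates were 31 members (12.3%), beside 1.24% of all regions. They were 6 of 14 at spliced leader genes, 8 of 35 at other snRNA genes and 17 of 203 at snoRNA genes. Over the 132 members found in both, Spearman's rho of replicate signal was 0.516 and Pearson's r of log10 signal 0.541, where over all 7927 nuclear regions found in both they were 0.170 and 0.375. These are descriptions over sites that share 2 libraries and an unknown depth, and some members share a replicate region. Without the IDR peaks rho was 0.399 over 119 members and 0.111 over all 7718 such regions of the list. By class, with the IDR peaks included, it was 0.714 over 11 spliced leader regions, 0.398 over 19 and 0.428 over 102. Neighbouring regions at sls-2.1, at sls-2.2 and at sls-2.18 carried the same replicate values. The 6 and the 11 spliced leader regions thus hold fewer separate sites. With each pair of replicate regions counted once, rho over all members was 0.484, and 22 members were in the top 1000 of both replicates.

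**Figure D4:**
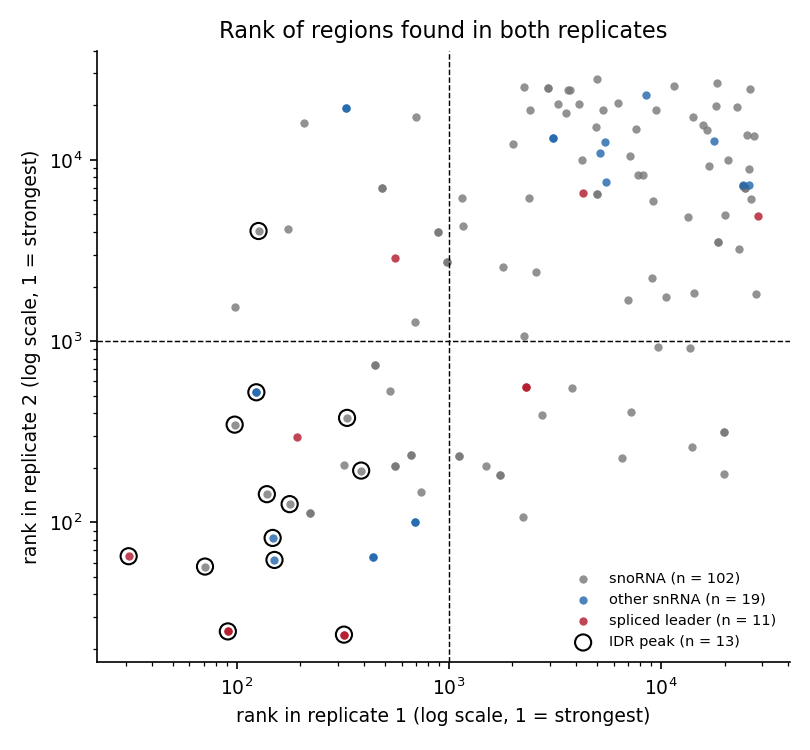
Rank in replicate 1 against rank in replicate 2, both on log scales with 1 the strongest, of the 132 members found in both replicate lists; colours mark the class, circles the 13 IDR peaks and dashed lines rank 1000. Of the 13 IDR peaks 12 lie in the lower left corner, below rank 1000 on both axes, and F11A10.9 lies at 127 and 4052.

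The members lay on all nuclear chromosomes. Chromosome II held 55 members and 5 of the IDR peaks, IV held 44 and 4, III 41 and 2, I 47 and 1, and V 49 and 1. In the same order (II, IV, III, I and V) the RNA genes numbered 87, 100, 67, 90 and 95. Of all pooled regions there, 0.561, 0.635, 0.857, 0.924 and 0.398% were IDR peaks. X held 16 members and 0 IDR peaks. Of the 4642 pooled regions on X 66 were IDR peaks (1.42%), so a count of 0 among 16 is near the share on X. The median percentile of the members was 46.3 on X and from 66.0 to 84.9 on the autosomes. X held 36 of the 475 genes, and spliced leader genes with a region lay on I, II and III.

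Short motifs that stood out in an earlier description of all IDR peaks were counted at the members. In windows of 100 bp on each side of the summit and on both strands, GAGAGA was in 3 of 13, beside 85 of the 200 other IDR peaks (42.5%). CTGCGTC was in 0 of 13, beside 35 of 200 (17.5%). GCGCGC was in 4 of 13, beside 27 of 200 (13.5%). Over all 252 members the shares were 21.0%, 3.57% and 7.94%, and over all nuclear regions 13.4%, 2.68% and 1.98%. With 13 regions these counts allow no statement on a difference. The median GC content of the window was 45.8% at the IDR members, 44.8% at the other IDR peaks, 39.6% at all members and 35.3% over all regions, and its part in the ranks was not tested.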

How the data were processed

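Per the text files deposited with the samples, the lists were made on ce11 as input for IDR, and the pooled list and both replicate lists went into the IDR peaks. Not given in the sources used here are the aligner, peak caller, thresholds, filters and use of a control. Signal is the authors' value per region, used only by rank within a list, or as log10 values between replicates. The deposited −log10 q values tie at the top (2.07 for all 13 IDR members) and were not used for ranking. An IDR peak was the pooled region with the same summit; a region was found in a replicate by an overlap of at least 1 bp, taking the strongest. Genes came from Ensembl release 115, and all 475 have the same coordinates in the RefSeq table. Scripts used Python 3.11.15, pandas 2.3.3, SciPy 1.17.1 and Biopython 1.88, and were tested on simulated data. The lists on ce10 were not used here. The members, lists and words were chosen with earlier results of these data known. Named were genes at IDR peaks, in the top 1000, all sls- genes with a region, and those next to each limit. Nothing says how the replicate cultures were separated.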

Additional observations from a re-analysis of the deposited data

How the results depend on the processing

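Of 84 alternative values, 53 stayed within a set limit and 31 moved. The limit was 1.5 times for counts and, for medians, the SD between the medians of each replicate alone. That SD comes from 2 values, which are also among the alternatives. It was 6.9 points at snRNA genes, 0.255 at snoRNA genes and 1.04 over all members. A median counted as moved is thus not alike between classes. For the share found in both replicates and for rho the limit was a 95% interval over regions, which takes neighbouring regions as independent. Of the medians 0 fell below the middle of the list, every median percentile staying above 50. The order of the classes was not kept: the median at snRNA genes with spliced leaders, 84.6 against 71.9 at snoRNA genes, was the lower of the pair without replicate 1 (65.1 against 67.4) and without promoter summits (66.3 against 69.5). At 1000 bp the IDR peaks numbered 14 at snoRNA genes and 20 in all, and the median percentile was 74.6 at snRNA genes with spliced leaders, 67.2 at snoRNA genes and 68.2 over all; at 250 bp it was 75.3 at snoRNA genes and 78.6 over all, with 59.0% found in both replicates. Without summits in protein-coding promoters, 3 IDR peaks were left at snRNA genes, 2 at snoRNA genes and 5 in all, with medians of 66.3, 69.5 and 68.8, 10 members in the top 1000 of both replicates and rho of 0.364. At or above the median IDR signal of 39.9 there was 1 at snoRNA genes and 5 in all. With the strongest of each chain of neighbouring members, the medians were 74.5 at snoRNA genes and 75.8 over all. Requiring 50% overlap, 38.9% were found in both replicates and 18 in both top 1000 sets; with summits within 100 bp it was 26.6% and 14. In each replicate alone, with its 213 strongest regions in place of the IDR peaks, snRNA genes had 7 and 7, snoRNA genes 7 to 12 (12 in replicate 2) and all members 14 to 19; medians were 65.1 to 74.8, 67.1 to 67.4 and 66.6 to 68.1. Leaving out genes with an identical copy or the X chromosome, or counting shared replicate regions once, was chosen after seeing the data and moved none of these values past those limits. No paired analysis was possible because there was 1 group. The causes were not tested. The lists hold no counts, so depth is unknown and intervals cover counting error only; with 3 to 13 peaks in a class, shares are imprecise. No untagged strain was used here, so signal there was not compared.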
